A study of Mus musculus with 6 samples.

Results

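A set of 10 genes of the rapid serum response and its control was followed in hearts of old and young mice. They are the zinc finger factor genes Egr1, Egr2 and Egr3, the corepressor genes Nab1 and Nab2, Arc, the immediate early response genes Ier2, Ier3 and Ier5, and the serum response factor gene Srf. These 10 genes were taken by symbol from the 18005 genes of the deposited count and FPKM tables, and all 10 were among the 12893 genes that could be tested. Hearts came from 3 old and 3 young mice, all labelled wild type and untreated, with 1 library per mouse. The labels give no age in months, strain or sex, and nothing on how or at what time of day the hearts were collected. The series title places the comparison in cardiac hypertrophy of old age.

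Immediate early genes are transcribed within minutes of a stimulus, before any new protein has to be made. Serum response factor (SRF) sits on a short AT-rich element, the CArG box, and switches such genes on together with ternary complex factors, which are phosphorylated by the ERK kinases, or with myocardin-related factors, which respond to actin. EGR proteins bind GC-rich sites, and the NAB proteins bind EGR proteins and hold them back. In heart muscle Egr1 is known to be induced by stretch, by growth stimuli and by lack of blood flow.

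Library totals lay between 11295280 and 12514005 counts, so that 1 count was worth at most 0.0885 CPM (counts scaled to the library total after TMM normalization). No member had fewer than 18 counts in any library. Libraries of the same group differed beyond counting noise: the chi-square statistic divided by its degrees of freedom was 7.9 to 16.7. Cardiomyocyte markers summed to 34200 to 37500 CPM in old and 31800 to 34400 CPM in young hearts, the largest sum of the marker lists. The summed markers of fibroblasts, endothelium, smooth muscle, macrophages, lymphocytes, neutrophils, red cells, mesothelium, skeletal muscle and adipocytes overlapped between old and young hearts. Overlap of sums does not show equal composition. In the edgeR test 1 of 6 fibroblast genes was higher and 1 lower, and of 6 smooth muscle genes 2 were higher and 1 lower. Among all genes tested 11.4% were higher and 10.6% lower. Endothelium overlapped only through old 3 (1700 CPM), with 1310 CPM in old 1 and old 2 against 1610 to 1840 CPM in young hearts. Only 2 of the 6 skeletal muscle genes, Acta1 and Ckm, were tested.

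All 10 genes were higher in old hearts in the edgeR test, and 0 were lower. Among all 12893 genes tested, 11.4% were called higher and 10.6% lower in old hearts. Higher genes made up 51.7% of these calls, and 40.2% with upper-quartile scaling, 32.7% with library size alone and 35.1% on FPKM. The log2 fold changes of the 10 genes, old over young, ran from 0.33 to 4.50, with a median of 1.73 against -0.01 over all genes tested. At least a 2-fold rise was called for 8 of the 10, against 2.26% of all genes. In each of the 10 the lowest old library lay above the highest young library, as it did for 19.6% of the genes tested. The rises fell into those held by all old hearts to a similar degree, as in Ier3, Ier5, Nab1 and Srf, and those that were much larger in the library old 3, as in Egr1, Ier2 and Arc. These are whole-heart libraries, in which a change in the number of cells of a type and a change of RNA per cell cannot be told apart.

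**Figure D1:**
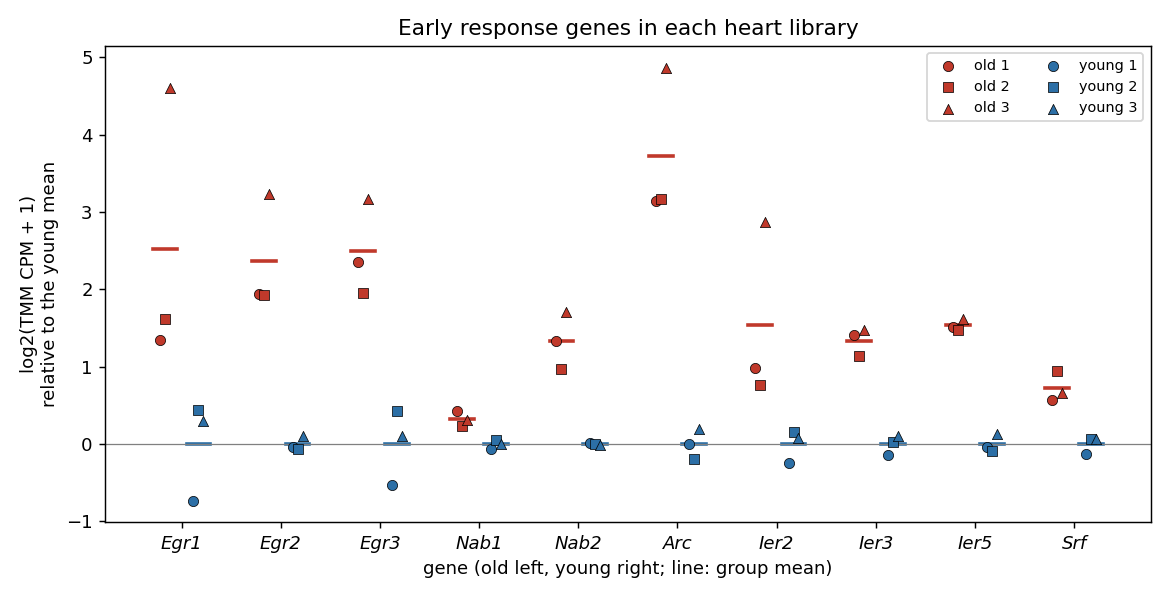
Levels of the 10 genes in each library, as log2(TMM CPM + 1) relative to the young mean of the same gene (vertical axis), with old libraries left and young libraries right of each gene and a line at each group mean (n = 3). Old 3 (triangle) stands at 4.61 for Egr1, against 1.35 in old 1 and 1.62 in old 2, while the 3 old libraries of Ier5 lie between 1.48 and 1.62.

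Srf encodes the factor through which serum and actin signals reach many of the other genes, and it was the most abundant of the 10 in young hearts. It had 197.3, 254.8 and 209.5 CPM in the 3 old hearts, against 121.4, 138.1 and 138.4 CPM in the young hearts. The old hearts lay above the young ones without overlap, and old 2 was the highest. On the log2 scale Srf rose by 0.73 ± 0.11 (SE, edgeR adjusted p = 0.000636), a 1.66-fold rise, and it lay between 0.62 and 0.81 with any 1 library left out.

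Promoters, from 250 bases before the transcription start to 50 after it, were taken from a RefSeq table for 6 of the 10 genes: Egr2, Nab1, Nab2, Ier3, Ier5 and Srf. Those of Arc, Egr1, Egr3 and Ier2 were not analysed here. Among these 6, Egr2 and Srf hold a perfect CArG box (CC, then 6 bases that are each A or T, then GG, read on both strands). A gene was counted if any of its promoters matched, and 1.81% of the 27025 genes with a RefSeq promoter did so. Of the 32851 mouse promoters themselves 1.63% hold such a box. The bases before the starts are shown to let the boxes be compared, 5′ to 3′ on the strand of the gene, with the CArG boxes in capitals. For Egr2 the stretches belong to an upstream start (plus strand, GRCm38.p6, chr10:67537446-67537565) and to a downstream one (chr10:67537787-67537816). The Srf stretch is on the minus strand (chr17:46556176-46556282).
Egr2, upstream start: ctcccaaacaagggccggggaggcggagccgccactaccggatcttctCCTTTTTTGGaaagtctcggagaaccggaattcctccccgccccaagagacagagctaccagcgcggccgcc
Egr2, downstream start: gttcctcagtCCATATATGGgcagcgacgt
Srf: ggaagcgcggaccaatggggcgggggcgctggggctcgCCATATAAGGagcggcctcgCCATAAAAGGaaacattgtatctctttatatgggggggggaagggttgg
Each Egr2 box lies 63 to 72 bases before the start chosen here, and the AT-rich core differs between these 2 starts. Other RefSeq starts of Egr2 place the downstream box 64 to 73 or 124 to 133 bases before them. The Srf boxes lie 73 to 82 and 53 to 62 bases before the start. The cAMP response element TGACGTCA, read on both strands, was found for none of the 6 genes. It was found for 2.03% of all genes and in 1.79% of all promoters. The shorter form TGACG, which the full element contains, was found for 3 of the 6 genes (Egr2, Nab1 and Srf). It was found for 23% of all genes and in 20.8% of all promoters. A match of letters is a description of the sequence and does not show that the site is used in the heart.

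Egr1, the member of the family best known from heart and vessel, had 84.1, 101.7 and 814.0 CPM in old hearts, against 19.1, 44.2 and 39.9 CPM in young hearts. Old 3 held 9.68 times the level of old 1, and yet old 1 and old 2 also stood above every young heart. The log2 fold change was 3.28 ± 0.73 (SE, edgeR adjusted p = 0.0088). Without old 3 it was 1.45 ± 0.23 (edgeR adjusted p = 0.000883), so the size of the rise depended on that library while the edgeR call did not. With all 6 libraries DESeq2 gave no adjusted p for Egr1, so that fit neither made nor withheld a call. On deposited FPKM with no filter on low values the call was lost (limma adjusted p = 0.113).

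Egr2, which in nerve directs myelination by Schwann cells, was the least abundant of the 10 per length. Its level was 9.74, 9.68 and 25.3 CPM in old hearts, against 1.72, 1.67 and 2.01 CPM in young hearts. The groups were far apart, with the young libraries close together. Egr2 rose by 3.04 ± 0.40 on the log2 scale (edgeR adjusted p = 3e-04) and by 2.43 ± 0.19 without old 3.

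Egr3, a relative of Egr1 known from muscle spindles and lymphocytes, had 18.4, 13.8 and 33.3 CPM in old hearts, against 1.64, 4.13 and 3.10 CPM in young hearts. Old 3 was again the highest, but by a smaller margin than for Egr1. On the log2 scale Egr3 rose by 2.90 ± 0.35 (edgeR adjusted p = 0.000178), and 2.47 ± 0.25 without old 3. The remaining gene of the family, Egr4, had 1, 0 and 3 counts in old hearts and 0, 1 and 0 counts in young hearts and was not tested.

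Nab2, a corepressor whose own gene is switched on by EGR proteins and so closes a feedback loop, had 46.8, 36.2 and 60.8 CPM in old hearts, against 18.2, 17.9 and 17.7 CPM in young hearts. The young hearts were almost equal and the old ones spread over a 1.68-fold range, again with old 3 on top. Nab2 rose by 1.42 ± 0.16 on the log2 scale (edgeR adjusted p = 9.93e-05). The 3′ end of Nab2 shares 40 bases of exon with Stat6, its start shares 151 bases with Nemp1, and both lie on the opposite strand (GENCODE M21, GRCm38). An antisense gene, Gm16229, shares 1050 bases and was not analysed here. Reads from these overlaps cannot be assigned without the strand setting, and their part in the Nab2 values was not tested. Stat6 (0.07 ± 0.10) and Nemp1 (-0.07 ± 0.17) were not called.

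Nab1, the sister corepressor, differed much less between the groups. It had 44.2, 38.5 and 40.7 CPM in old hearts, against 31.3, 34.1 and 32.8 CPM in young hearts. The log2 fold change was 0.33 ± 0.09 (edgeR adjusted p = 0.0172), the smallest of the 10. This call held in 10 of 17 alternative analyses and was lost with library size alone (0.25, adjusted p = 0.0539), on FPKM values, and without old 1 (adjusted p = 0.0692), young 1 (0.0925) or young 3 (0.0595).

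The EGR site GCGNGGGCG, read on both strands, was found for 2 of the 6 genes with a promoter, Nab1 (3 copies) and Srf (1 copy). It was not found for Nab2, Egr2, Ier3 or Ier5. It was found for 6.27% of all genes and in 5.55% of all promoters. The Nab1 sites are shown because EGR proteins, the partners of NAB1, are known to bind such sites. They lie on the minus strand of chromosome 1 (GRCm38.p6, chr1:52500573-52500597, chr1:52500541-52500565 and chr1:52500470-52500494), upstream of the RefSeq start but inside the first exon of a longer GENCODE M21 transcript, with the sites in capitals.
Nab1, site 1, on the opposite strand: cccgcggcCGCCCACGCcgggatct
Nab1, site 2: tcggccgcGCGTGGGCGggagccgg
Nab1, site 3: ggggcgggGCGGGGGCGgcggaggt
These sites lie 133 to 141, 101 to 109 and 30 to 38 bases before the start. The Srf site lies 93 to 101 bases before its start, ahead of both CArG boxes.

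Per length, the EGR transcripts outweighed those of their corepressors in every old heart and in young 2 and young 3. Summed FPKM of Egr1, Egr2 and Egr3 was 33.5, 37.3 and 276.2 in old hearts, against 7.38, 16.0 and 14.8 in young hearts. Summed FPKM of Nab1 and Nab2 was 26.1, 20.5 and 31.1 in old hearts, against 13.7 in each of the young hearts. The ratio of NAB to EGR transcripts was 0.777, 0.551 and 0.113 in old hearts, against 1.85, 0.857 and 0.927 in young hearts. The groups did not overlap, though old 1 came close to young 2. The mean log2 ratio was -1.46 ± 1.49 in old and 0.19 ± 0.61 in young hearts (SD, n = 3), a difference of -1.64 (exact 2-sided permutation p = 0.1, the smallest that 3 against 3 can give). Without old 3 the difference was -0.80, and for Nab2 over Egr1 alone it was -1.18 with overlapping groups (exact permutation p = 0.4). Nab2 made up 69.4% ± 4.96 of the NAB FPKM in old and 52.4% ± 1.29 in young hearts (SD, n = 3), without overlap (exact permutation p = 0.1). Egr1 made up 86.3% ± 7.71 of the EGR FPKM in old and 89.9% ± 1.74 in young hearts, and here the groups overlapped (exact permutation p = 0.6).

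**Figure D2:**
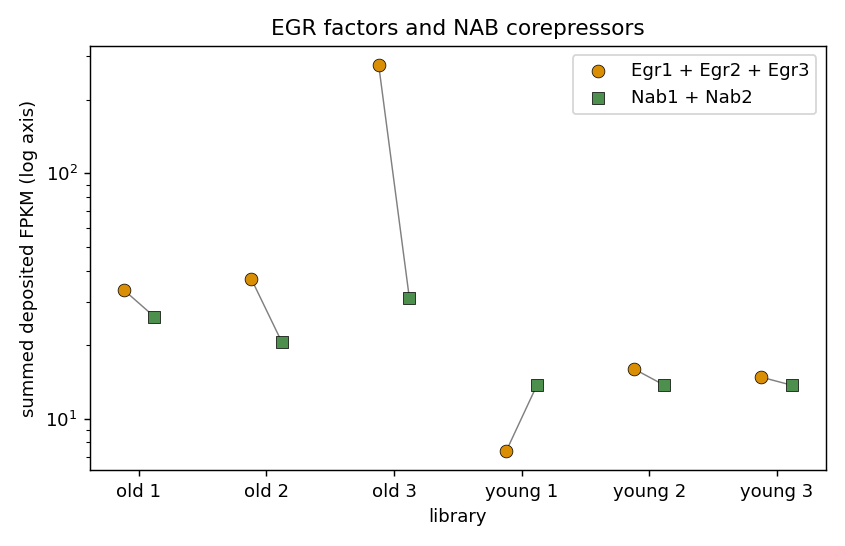
Summed deposited FPKM (log axis) of Egr1, Egr2 and Egr3 (circles) and of Nab1 and Nab2 (squares) in each library. The EGR sum lies above the NAB sum in the 3 old libraries, most in old 3 (276.2 against 31.1), while young 1 is the library with the lowest EGR sum (7.38).

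Arc, best known from neurons, where it governs the removal of glutamate receptors from synapses, showed the largest fold change of the 10 and the fourth largest rise of all genes tested. It had 25.1, 25.7 and 85.4 CPM in old hearts, against 1.95, 1.58 and 2.40 CPM in young hearts. In counts these were 284, 297 and 985 in old hearts and 25, 18 and 31 in young hearts. In CPM the lowest old heart was more than 10 times as high as any young heart. In counts, and in FPKM (8.01 against 0.810), the ratio of these hearts was a little below 10. On the log2 scale Arc rose by 4.50 ± 0.53 (edgeR adjusted p = 0.000155), and 3.68 ± 0.16 without old 3. Markers of neurons and glia were scarce: their 6 genes summed to 15.1, 18.4 and 18.6 CPM in old hearts, against 13.4, 12.9 and 12.8 CPM in young hearts. Of these 6, Th was at 0 counts in every library, Snap25 had 1 count in all, and 1 of the 4 tested was called, Tubb3 (1.22 ± 0.20, edgeR adjusted p = 0.00162). The part of such cells in the Arc values was not tested.

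Ier2, which encodes a nuclear protein of growth-stimulated cells, had 47.2, 40.4 and 177.1 CPM in old hearts, against 19.7, 26.4 and 24.8 CPM in young hearts. As with Egr1, old 3 was several times higher than the other old hearts, which themselves lay above all young hearts. The log2 fold change was 1.90 ± 0.45 (edgeR adjusted p = 0.0118) and 0.90 ± 0.12 without old 3 (adjusted p = 0.000256). The call was lost without young 3 (adjusted p = 0.0583) and on FPKM with no filter (limma adjusted p = 0.122).

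Ier3, also known as IEX-1 and tied to cell survival under stress, had 57.5, 47.4 and 60.1 CPM in old hearts, against 19.0, 21.5 and 22.8 CPM in young hearts. All old hearts stood at over 2 times the level of any young heart. On the log2 scale Ier3 rose by 1.38 ± 0.11 (edgeR adjusted p = 9.71e-06).

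Ier5, which takes part in the activation of the heat shock factor HSF1, had 125.6, 122.2 and 134.5 CPM in old hearts, against 41.9, 40.5 and 47.4 CPM in young hearts. Within each group the libraries were close, and this gene had the smallest p of the 10, ranking ninth of all genes tested. The log2 fold change was 1.56 ± 0.09 (edgeR adjusted p = 1.28e-06) and stayed between 1.51 and 1.63 with any 1 library left out.

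**Figure D3:**
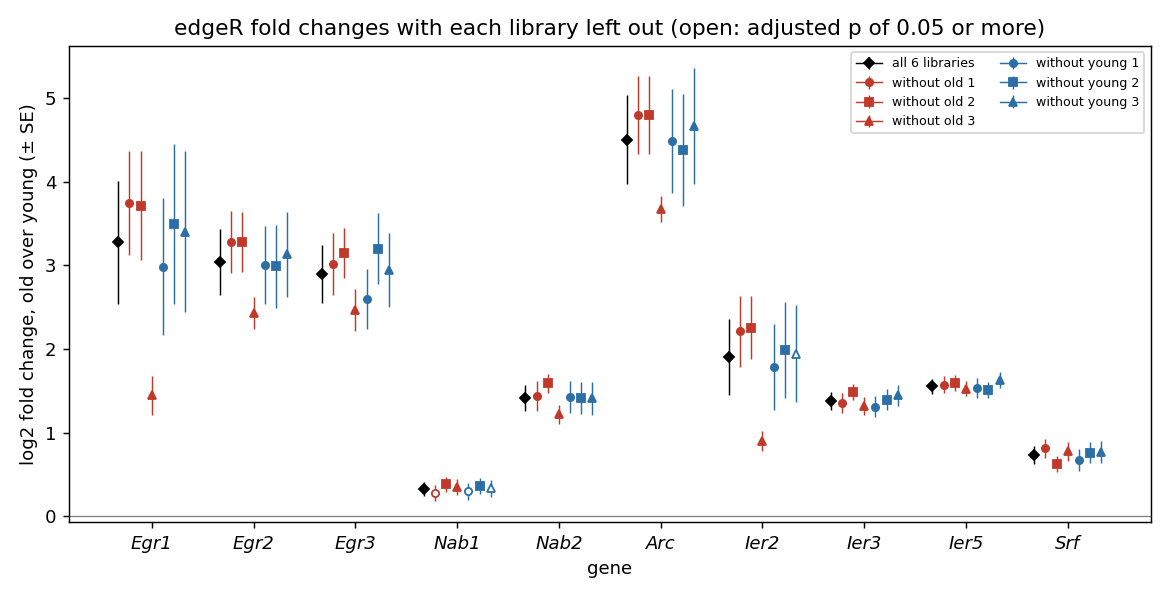
edgeR log2 fold changes, old over young, with SE bars, for all 6 libraries (diamonds) and with each library left out in turn; open symbols have an adjusted p of 0.05 or more. Leaving out old 3 lowers Egr1 to 1.45 and Ier2 to 0.90, and open symbols appear for Nab1 and Ier2.

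The order of the 10 genes per length differed between the groups. Among old hearts the mean FPKM was highest for Egr1 (107 ± 134) and Ier2 (56.8 ± 50.4), then Ier3 (49.1 ± 6.79), Srf (48.0 ± 5.90) and Ier5 (37.9 ± 2.51; SD, n = 3). The ranges of the first 4 overlapped from neighbour to neighbour, so their order was not distinct beyond the spread. Below them came Nab2 at 18.1 ± 4.95, Arc at 14.5 ± 11.3, Nab1 at 7.75 ± 0.607, Egr3 at 5.16 ± 2.48 and Egr2 at 3.89 ± 2.41 FPKM, and from Nab2 down each overlapped its neighbour. Ier5 did not overlap Srf or Nab2, its neighbours in this order, but lay within the ranges of Egr1 and Ier2. Egr1 and Ier2 led through old 3, at 261.6 and 114.9 FPKM, and both lay below Ier5 in old 1 and old 2. In young hearts Srf led with 30.6 ± 1.93 FPKM, followed without overlap by Ier3 at 19.9 ± 1.71 and Ier2 at 15.9 ± 2.15. Ier5 at 13.6 ± 1.27 and Egr1 at 11.5 ± 4.35 FPKM followed with overlapping ranges. Nab2 at 7.16 ± 0.180 and Nab1 at 6.51 ± 0.173 FPKM stood apart from each other, though Nab2 overlapped with Egr1. Egr3, Arc and Egr2 were lowest at 0.731 ± 0.299, 0.665 ± 0.144 and 0.494 ± 0.0546 FPKM, and their neighbouring ranges overlapped. Arc was at 8.01 FPKM in both old 1 and old 2, below every old Nab2 value, and at 27.5 FPKM in old 3, above them all. In young hearts every Arc value lay under 1 FPKM.

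**Figure D4:**
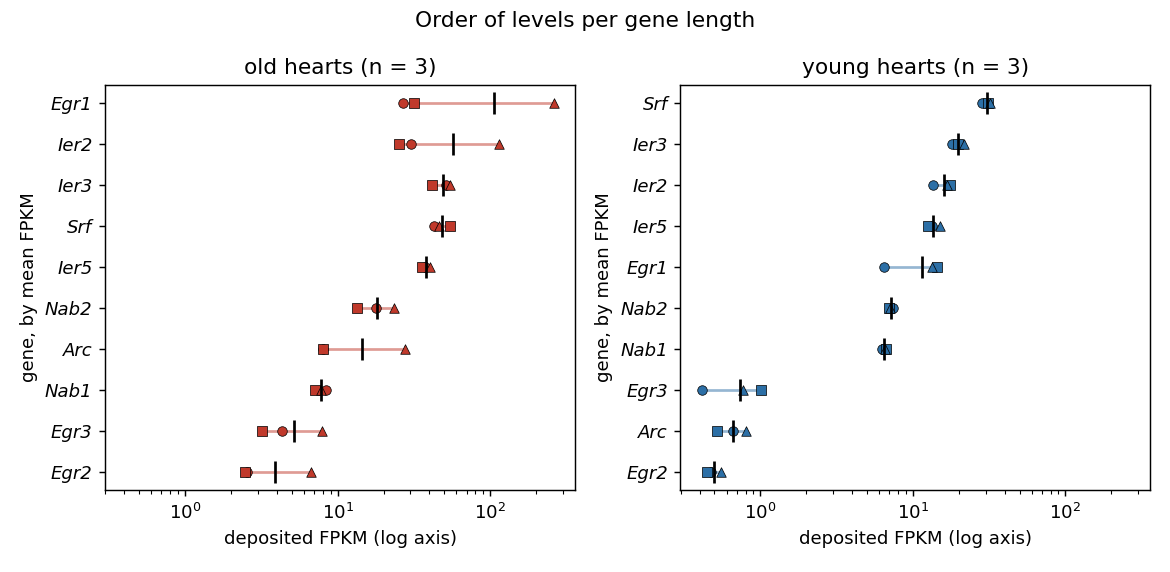
Deposited FPKM (log axis) of the 10 genes in old hearts (left) and young hearts (right), ordered by mean, with 1 symbol per library (circle 1, square 2, triangle 3), a line over the range and a tick at the mean. Egr1 has the highest mean in old hearts through old 3 (range 26.7 to 262 FPKM; below Ier3, Srf and Ier5 in old 1 and old 2), and Srf leads in young hearts with 28.4 to 32.1 FPKM.

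Spread among the old hearts was large for part of the set. The range from the lowest to the highest old library, on the log2(CPM + 1) scale, was at least 1 for 5 of the 10 genes: Egr1 (3.26), Ier2 (2.11), Arc (1.72), Egr2 (1.30) and Egr3 (1.21). Among all genes tested 1.3% had such a range. The other 5 ranged over 0.73 for Nab2, 0.37 for Srf, 0.34 for Ier3, 0.19 for Nab1 and 0.14 for Ier5. In young hearts only Egr1 reached a range of 1 (1.17), as did 0.659% of all genes, with young 1 the low library. The median range of the 10 genes was 0.97 in old and 0.24 in young hearts, against 0.25 and 0.20 over all genes tested. Old 3 was the highest old library for 8 of the 10 genes, and for 36.7% of all genes. Endothelial markers summed to 1310, 1310 and 1700 CPM in old hearts, against 1840, 1610 and 1790 CPM in young hearts, and so were highest in old 3 among the old. Fibroblast markers summed to 1400, 1370 and 1710 CPM in old hearts, against 1440, 1380 and 1390 CPM in young hearts. Lymphocyte markers, at 6.11, 5.27 and 11.5 CPM in old hearts, were also highest in old 3, against 3.83, 8.61 and 4.80 CPM in young hearts. Each of the lymphocyte genes had only 50 to 128 counts over all 6 libraries. Cardiomyocyte markers (35200, 37500 and 34200 CPM) and macrophage markers (339, 319 and 296 CPM) were lowest in old 3 among the old. In young hearts they stood at 31800, 33100 and 34400 CPM, and at 310, 311 and 297 CPM. The part of any of these cells in the values of old 3 was not tested.

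The genes closest in pattern to Egr1 were other immediate early genes. Likeness was measured as the root mean square difference of log2(CPM + 1), each gene set to its young mean, over the 6 libraries. The closest were Fos (0.38), Junb (0.53), Btg2 (0.64), Zfp36 (0.79) and Ccn1 (0.79). Junb, a partner in AP-1 dimers, had 71.3, 62.6 and 304.7 CPM in old hearts, against 21.2, 30.1 and 27.0 CPM in young hearts, and so shared the high value in old 3. Ccn1, a secreted matricellular protein gene, had 162.0, 222.3 and 939.6 CPM in old hearts, against 101.7, 97.8 and 116.6 CPM in young hearts. The call of Ccn1 (2.07 ± 0.50, edgeR adjusted p = 0.0128) was lost without young 2 (adjusted p = 0.0533) or young 3 (0.0589) and in the 3 fits on FPKM (limma adjusted p = 0.0628 to 0.148). Without old 3 its log2 fold change was 0.88 ± 0.12 (edgeR adjusted p = 0.00034). Leaving out old 3 also lowered Fos to 2.04, against 3.81 with all libraries, Junb to 1.37, against 2.49, and Zfp36 to 1.01, against 1.91, with all 3 still called. Closest to Arc were Apold1 (0.61), Fosb (0.65), the cochaperone gene Dnajb1 (0.75), Nr4a1 (0.83) and Fos (0.84). Apold1, an early response gene of endothelium, had 105.1, 82.1 and 204.4 CPM in old hearts, against 8.28, 16.0 and 18.3 CPM in young hearts.

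Outside the 10 genes, most other rapid serum-response genes were also higher in old hearts. Of 61 tested, 46 rose, 4 fell and 11 were not called, with a median log2 fold change of 1.13. Over all genes tested 11.4% were called higher and 10.6% lower. By smallest p these were led by the nuclear receptor gene Nr4a3 (4.80 ± 0.27), the AP-1 genes Fosl2 (1.87 ± 0.11) and Fosb (4.09 ± 0.25), and Maff (2.50 ± 0.16), a small basic leucine zipper factor. In Nr4a3 the order of the old hearts was not that of Egr1, with 128.8, 178.8 and 90.0 CPM, against 3.12, 6.15 and 5.03 CPM in young hearts. The 4 that fell, named after their values were seen, were Btg1, Zfp36l1, Dusp4 and Plk2, by 0.57, 0.60, 0.92 and 0.93 on the log2 scale. Without old 3, 43 rose and 5 fell, and the falls numbered 2 without young 1.

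In the pathways that lead to SRF and CREB the share of genes called higher was near the 11.4% of all genes, and few were called lower (10.6% of all genes). Of 33 genes of the ERK, p38, CREB and RhoA pathways 4 rose, 2 fell and 27 were not called, with a median of 0.05 that turned to -0.03 with library size alone and to between -0.03 and -0.02 on FPKM. Among the called genes of smallest p were Crem (0.98 ± 0.18), Map3k1 (-0.63 ± 0.16) and Rps6ka3 (0.55 ± 0.17). Crem encodes cAMP-responsive activators and the inducible repressor ICER. With a library left out, the call of Map3k1 was lost in 4 of 6 fits (without old 1, old 2, young 1 or young 3) and that of Rps6ka3 in 5, all but the one without old 3. The 4 rises became 2 without old 1, young 1 or young 3, and the 2 falls became 0 without these or old 2.

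Genes listed as SRF cofactors and ternary complex factors were called in both directions, against 11.4% higher and 10.6% lower among all genes. The share that rose was near that of all genes, while the share that fell, 5 of 13, was above it. Of 13 genes 2 rose, Fhl2 (1.04 ± 0.10), a LIM-domain partner of SRF, and the coactivator gene Myocd (0.33 ± 0.08). The call of Myocd was lost without young 1 (edgeR adjusted p = 0.0812) and in the 3 fits on FPKM (limma adjusted p = 0.0507 to 0.0666). The 5 that fell were Mrtfb (-0.51 ± 0.08), which encodes an actin-regulated coactivator, the ternary complex factor gene Elk3 (-0.79 ± 0.14), and Ets1, Ets2 and Tead1 (-0.74 ± 0.20, -0.40 ± 0.11 and -0.47 ± 0.14), these 3 picked for naming with their values known. Over the list the median was -0.14, and Elk1 and Elk4 were not called. Srf itself and the gene of its coactivator MRTF-B thus moved in opposite directions. Mrtfb had 33.5, 35.6 and 36.0 CPM in old hearts, against 49.8, 50.2 and 49.2 CPM in young hearts, without overlap. Without old 1, young 1 or young 3 the falls numbered 2, without young 2 they numbered 3, and without young 1 the rises numbered 1.

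SRF targets of the muscle and actin cytoskeleton were mostly higher or not called. Of 34 tested, 22 rose, 1 fell (Tuft1, -0.73 ± 0.23, named after its value was seen) and 11 were not called, with a median of 0.39. The shares of all genes tested were 11.4% called higher and 10.6% called lower. Led by smallest p, the rises were those of cytoplasmic gamma actin Actg1 (1.47 ± 0.11), cardiac actin Actc1 (1.08 ± 0.08), the focal adhesion gene Zyx (0.85 ± 0.08) and beta actin Actb (1.15 ± 0.11). Actg1 had 775.7, 711.4 and 942.3 CPM in old hearts, against 283.7, 277.0 and 317.6 CPM in young hearts. With a library left out 16 to 20 rose, and the fall of Tuft1 was kept only without old 2.

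Genes reported as EGR1 targets rose in part. Of 26 tested apart from the NAB genes, 12 rose, 2 fell and 12 were not called, with a median of 0.36. For all genes tested the shares were 11.4% called higher and 10.6% called lower. Nr4a1 is counted both in this list and among the other rapid serum-response genes. Among the rises of smallest p were those of Thbs1 (2.76 ± 0.19), a matricellular protein, Plaur (1.89 ± 0.20), the urokinase receptor, and the cell cycle inhibitor gene Cdkn1a (1.59 ± 0.18). Thbs1 was highest in old 3, which also had the most Egr1, at 130.9, 94.4 and 164.6 CPM in old hearts, against 15.9, 21.7 and 19.97 CPM in young hearts. The 2 that fell were Gdf15 (-0.78 ± 0.18) and Bcl2l11 (-0.68 ± 0.16), named after their values were seen. Without old 3 the rises numbered 12 and the falls 3, and without young 3 the falls numbered 1.

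**Figure D5:**
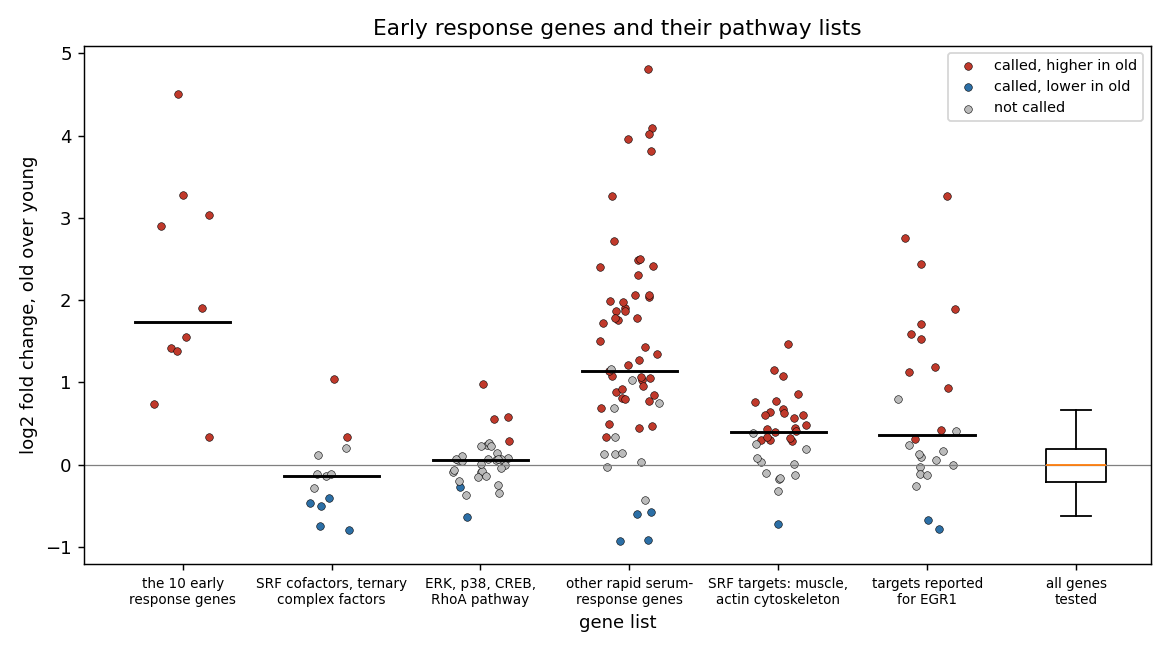
edgeR log2 fold changes, old over young (vertical axis), for the 10 genes and the 5 pathway lists without them, with black lines at the medians and a box for all genes tested (quartiles, whiskers at the 5th and 95th percentiles). The medians are 1.73 for the 10 genes and 1.13 for other rapid serum-response genes, against 0.05 for the upstream pathway genes and -0.14 for SRF cofactors.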

How the data were processed

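Polyadenylated RNA of mouse hearts was sequenced, 1 library per mouse. Per the labels' protocols, RNA was taken with a mirVana kit and libraries with a TruSeq Stranded mRNA kit. The authors deposited whole-number counts per gene and library, unnormalized, and FPKM (fragments relative to gene length and sequencing depth), and the FPKM equal the same counts divided by 1 length per gene (relative deviation at most 6.9e-07). The submitters' processing notes name Trimmomatic, HISAT2, Bowtie2, HTSeq, Cufflinks, StringTie, DESeq and GRCm39. Their roles and versions, and whether counting used strand, were not stated in the labels or file headers.

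Counts were tested with the quasi-likelihood F test of edgeR 4.0.16 (R 4.3.3) after filterByExpr and TMM scaling, over all 6 libraries without covariates, with Benjamini-Hochberg adjustment over 12893 genes. Genes with an adjusted p below 0.05 were called. Standard errors were derived from each fold change with its F statistic. CPM are TMM scaled. Log2 ranges use log2(CPM + 1), and FPKM alternatives log2(FPKM + 1) or log2(FPKM + 0.1). Single values per library were compared by exact 2-sided permutation. The code was tested on simulated data. Alternatives were scaling by RLE, by upper quartiles or by library size alone; testing unfiltered genes, or those with 1 CPM in at least 3 libraries; a replicate block; each library left out; DESeq2 1.42.0, and limma 3.58.1 as voom or on FPKM.

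The 10 genes and the pathway lists were chosen with earlier results of these data known. From each list, up to 4 called genes of smallest p are named. The 5 genes outside the 10 that were closest in pattern to Egr1 and to Arc are named as well. Some genes that this rule selects are not reported here. Promoter sequences come from RefSeq (GRCm38.p6), which is not the build named in those notes.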

Additional observations from a re-analysis of the deposited data

How the results depend on the processing

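Under the 17 alternatives 159 of 169 values of the 10 genes kept their direction and their side of the threshold, 10 fell short of it and 0 changed direction; DESeq2 gave no adjusted p for Egr1. For the other named genes 448 of 476 did so, 28 fell short and 0 changed direction. The cause of these changes was not tested. The labels do not state that the numbers 1 to 3 in the titles pair old with young mice. Deviations of same-numbered libraries from their group means correlated at 0.0764, 0.0673 and 0.0177, and 2 old libraries correlated best with another number. With 3 libraries per group such correlations cannot settle whether mice were paired. With a replicate block 2734 genes and all 10 members were called. 8 to 10 members were higher with a library left out and 7 to 10 otherwise, lowest on FPKM with no filter. Genes called numbered 1552 to 3041 (850 to 1597 higher, 682 to 1444 lower) with a library left out. On FPKM 907 were higher, 897 with a pseudocount of 0.1 and 810 with no filter, and 2122 were lower with library size alone. Calls higher in old hearts were 51.7% under TMM, 40.2% with upper-quartile scaling, 32.7% with library size alone and 35.1% on FPKM. Ratios of NAB to EGR levels differed by -2.19 to -0.80 on the log2 scale with a library left out.

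With a library left out, the SRF cofactor list had 1 to 3 rises and 2 to 5 falls, the upstream pathway list 2 to 5 and 0 to 3, the other rapid genes 38 to 48 and 2 to 5, the cytoskeletal targets 16 to 20 and 0 to 1, and the EGR1 targets 10 to 13 and 1 to 3. On FPKM (pseudocount 1, 0.1, and no filter) the cofactor list had 1 rise in each, and 2 falls with no filter; the upstream list had 2, 2 and 1 rises and 4, 4 and 1 falls. The upstream list had 2 rises with library size alone, and 5 falls with it and with upper-quartile scaling. Cytoskeletal targets had 14 rises on FPKM with no filter and 0 falls with DESeq2, and EGR1 targets 1 fall on FPKM with no filter. Genes of under 30 counts per library, as Arc and Egr2 in most young hearts, carry the largest counting error.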
